A study of Mus musculus with 11 samples.

Results

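Syncrip and Hnrnpr are a pair of paralogous genes that encode the RNA-binding proteins SYNCRIP, also called hnRNP Q, and hnRNP R. They were taken by name as 2 of the 48440 genes of a bulk count table and of the 23127 genes seen in at least 3 kept cells of 2 single-cell RNA-sequencing (scRNA-seq) matrices. The study deleted Syncrip in the developing mouse neocortex, and the question followed here is how both genes were expressed across cell types and genotypes and whether Hnrnpr was higher where Syncrip had been targeted. The bulk samples were 6 cultures of neural progenitor cells (NPCs), 3 labelled WT and 3 labelled cKO. The single-cell samples were dorsal cortex of 1 WT and 1 cKO embryo of the same litter at E14.5 (embryonic day). Other libraries of the series, which probed SYNCRIP binding in NPCs, were not analysed here.

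All animals were on a C57BL/6 background. The cKO (conditional knockout) animals were Syncrip fl/fl with Emx1-Cre, so loxP sites flanked exons 2 to 4 of both Syncrip copies, and the recombinase was made where the Emx1 promoter is active, in the progenitors of the dorsal telencephalon. Cells that arise outside that lineage, such as interneurons of the ganglionic eminence (GE), blood vessel cells and blood cells, are not its target. The NPCs were grown from the lateral ventricle wall of E14.5 embryos, in medium with EGF and bFGF, over several passages. The labels do not say that the 3 cultures of a group came from separate animals, so p-values over cultures measure the spread between these cultures, which may be technical. Each genotype had 1 embryo in the scRNA-seq, so no test was made there, and every interval quoted for single cells covers counting error only.

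Heterogeneous nuclear ribonucleoproteins (hnRNPs) coat newly made RNA and follow it through splicing, export, transport, translation and decay. SYNCRIP and hnRNP R share an acidic domain and RNA recognition motifs. SYNCRIP is known from complexes that protect mRNAs from decay and from RNA granules of neurons, and hnRNP R from its binding to the survival motor neuron protein and from the transport of mRNA into axons. Apical progenitors (APs, the radial glia of the ventricular zone) give rise to intermediate progenitors (IPs) and to neurons that migrate outward and then mature.

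The genes have the same exon plan. In the annotation of the files' build (mm10), Syncrip spans chr9:88447009-88482574 on the minus strand and Hnrnpr spans chr4:136310942-136359447 on the plus strand. The transcripts with the longest coding sequence, Syncrip-205 and Hnrnpr-202, each have 11 exons with the start codon in exon 2, and code over 1869 and 1896 bases. Of their 10 pairs of coding exons, 8 have equal coding length, and 76.3% of the 1859 aligned coding bases are identical. Identity of the pairs ran from 69.3% in exon 5 to 81.5% in exon 4.

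**Figure D1:**
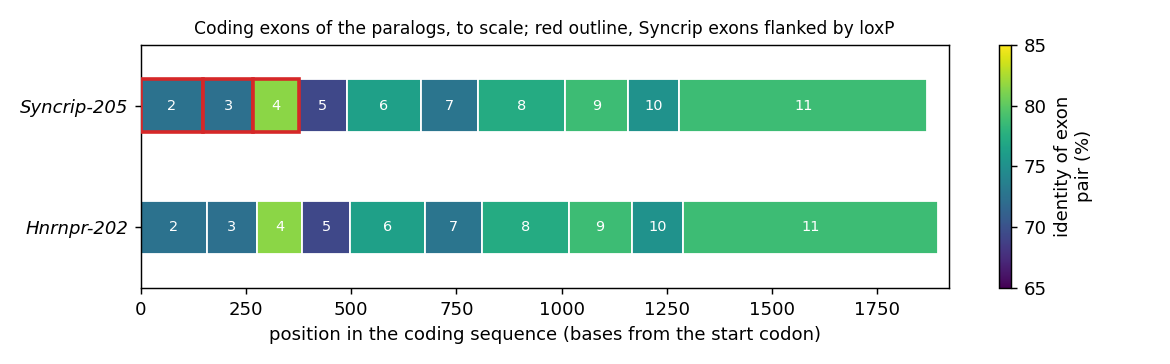
Coding exons of Syncrip-205 (top) and Hnrnpr-202 (bottom), drawn to scale in bases from the start codon and numbered by exon, with the color giving the percent identity of each exon pair. The red outline marks Syncrip exons 2 to 4, which hold 375 of its 1869 coding bases.

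The floxed exons contain the start codon. They hold 387 bases of Syncrip-205, of which 375 are coding, 20.06% of the coding sequence. The first 60 coding bases of both genes are shown because they are the part of Syncrip that recombination removes and the part of Hnrnpr that stays (capitals mark the start codon).
Syncrip, exon 2, chr9:88480694-88480753, minus strand: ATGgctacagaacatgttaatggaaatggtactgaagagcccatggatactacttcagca
Hnrnpr, exon 2, chr4:136314099-136314158, plus strand: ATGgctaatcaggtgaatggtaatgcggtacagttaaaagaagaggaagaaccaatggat

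What the counts can tell of the deletion is limited by where the reads fall. The floxed exons make up 13.15% of Syncrip-205 and 3.147% of all annotated Syncrip exon bases, and the single-cell libraries read the end of the transcript, 2057 bases downstream of exon 4 in Syncrip-205. A transcript that lacks exons 2 to 4 is still counted, so neither the summed bulk counts nor the UMIs (unique molecular identifiers, one per captured molecule) check the deletion. The paper reports other checks of the knockout. They are sequencing reads of neurospheres in which exons 2 to 4 were missing, and a blot and staining for the protein in postnatal cortex. The paper reports qPCR of Syncrip as a check of lentiviral overexpression, with primers chosen to match both Syncrip and its mutants. The listed primers lie beyond the deletion, both in exon 5, and are shown with their positions for that reason.
Forward primer, chr9:88477157-88477180, minus strand: tggaaagaacaggctacacacttg
Reverse primer, chr9:88477074-88477094, plus strand: ctcagtgccaacagaaggctg

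Identical stretches between the genes were short. The longest identical run within the aligned coding sequences is 22 bases, in exon 11 of both genes (capitals below, with 12 flanking bases on each side), and 46 bases over all listed transcripts.
Syncrip, exon 11, chr9:88456178-88456223, minus strand: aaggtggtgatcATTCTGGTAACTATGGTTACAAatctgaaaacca
Hnrnpr, exon 11, chr4:136339943-136339988, plus strand: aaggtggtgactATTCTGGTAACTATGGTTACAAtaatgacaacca
Closer copies exist elsewhere in the genome. A stretch at chr19:11121510-11122425 is 99.8% identical to 49.1% of the Syncrip coding sequence, and the genes annotated there had at most 5 counts in any culture. An intronless copy of Hnrnpr at Gm6159 on chromosome 1 is 97.8% identical over 91.8% of the coding sequence and had 2 to 9 counts. Gm20537, a predicted gene on the same strand, shares 344 exon bases with Syncrip and had 49 to 88 counts per culture. No source used here states how reads that fit several of these places were counted.

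The cultures had 16962903 to 22708400 counts each, and 14432 genes passed the filter on low counts, both members among them (Syncrip with 1433 to 1841 and Hnrnpr with 3640 to 5151 raw counts per culture). Levels are in counts-per-million (CPM) after scaling by the trimmed mean of M-values (TMM), and cKO was compared with WT by edgeR's quasi-likelihood test over all of these genes. Syncrip was at 77.9, 79.8 and 79.9 CPM in the WT cultures and at 90.3, 88.7 and 81.5 CPM in the cKO cultures. The cKO cultures were all above the WT cultures, but the third cKO culture exceeded the highest WT culture by little. The difference did not pass the test (79.2 ± 1.09 against 86.8 ± 4.69 CPM, mean ± SD, n = 3 each; log2 difference 0.13 ± 0.075 SE, edgeR adjusted p = 0.180), and its 95% interval ran from -0.03 to 0.29. Whole-gene Syncrip counts were thus not lower in the cultures labelled cKO. These counts include transcripts that lack the floxed exons, so they do not check the deletion.

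Hnrnpr, the paralog with the intact gene, rose. It was at 209, 203 and 199 CPM in the WT cultures and at 249, 237 and 248 CPM in the cKO cultures. The groups did not overlap. The means were 204 ± 5.07 and 245 ± 6.87 CPM (SD, n = 3 each), a log2 difference of 0.26 ± 0.072 SE with a 95% interval of 0.11 to 0.42 (edgeR adjusted p = 0.0103). Changes were common in these cultures: 39.5% of all tested genes were called, 19.7% as higher and 19.8% as lower in cKO, and in 25.7% every cKO culture was above every WT culture. The change in Hnrnpr was larger in size than that of 48.4% of the tested genes, so it was of middling size. The call was lost without cKO culture 1 (log2 difference 0.24, edgeR adjusted p = 0.0557) and without cKO culture 3 (0.26, adjusted p = 0.0570).

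**Figure D2:**
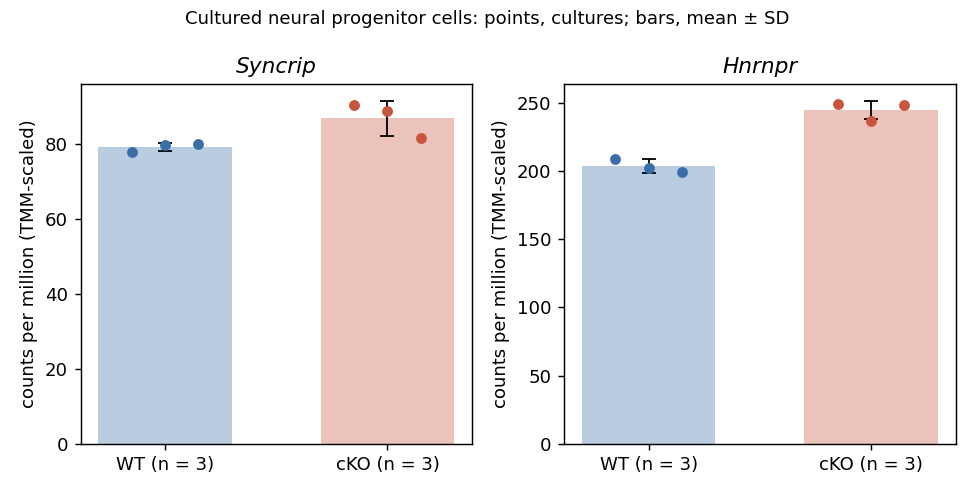
Syncrip (left) and Hnrnpr (right) in TMM-scaled CPM in the 6 NPC cultures, points being cultures and bars the mean ± SD of 3 cultures. All cKO cultures lie above all WT cultures for both genes, by a wider gap for Hnrnpr (237 against 209 CPM) than for Syncrip (81.5 against 79.9 CPM).

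Some other properties of the cultures moved with these values. Summed counts of 4 Y-linked genes were 5903 to 9232 in WT cultures 1 and 2 and cKO culture 1, and no more than 1 elsewhere, and both genotypes thus held cultures with and without Y-linked counts. Hnrnpr was higher in cKO within both kinds of culture: 249 against 203 and 209 CPM in those with Y-linked counts, and 237 and 248 against 199 CPM in those without. With sex as a covariate its log2 difference was 0.28 (edgeR adjusted p = 0.00833). The counts of called markers that follow stand beside 19.7% called higher and 19.8% called lower in cKO over all tested genes. Of 52 tested genes of the G2/M phase, 43 were called higher in cKO and 3 lower, with a median log2 difference of 0.96 and summed levels of 2497 to 2768 CPM in WT and 3058 to 3408 CPM in cKO. Of 42 tested S phase genes 20 were higher and none was lower, with summed levels of 905 to 1006 and 1013 to 1174 CPM. Of 6 tested markers of migrating neurons none was higher and 4 were lower (Rnd2, Nrp1, Nhlh1 and Pdzrn3), with summed levels of 365 to 382 CPM in WT and 260 to 270 CPM in cKO. Of 7 tested markers of immature neurons 3 were higher (Sox5, Tle4 and Mef2c) and 2 lower (Bcl11b and Neurod6). Their summed levels were 423 to 454 CPM in WT and 523 to 541 CPM in cKO. Tle4 led that sum, with means of 262 and 349 CPM, while Neurod6 fell from a mean of 16.3 to 0.904 CPM. The sum therefore does not speak for each marker of the list. Of 7 tested AP markers 3 were higher (Nes, Hes5 and Fabp7) and 3 were lower (Pax6, Slc1a3 and Sox9), with summed levels of 4735 to 5833 and 5350 to 6058 CPM. Of 3 tested astrocyte markers none was higher and 2 were lower, with summed levels of 418 to 484 and 190 to 213 CPM. Of 4 tested markers of the oligodendrocyte lineage 2 were higher and none was lower, with summed levels of 1783 to 2072 and 2155 to 2489 CPM. None of the fibroblast or red blood cell markers passed the filter on low counts. The part of cell cycle and cell mixture in the Hnrnpr difference was not tested, and in bulk samples more cells of a type cannot be told apart from more RNA per cell.

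The balance between the paralogs in the cultures leaned to Hnrnpr. Per kilobase of all annotated exons, Syncrip was at 6.34, 6.49 and 6.49 CPM in the WT cultures and at 7.34, 7.21 and 6.63 CPM in the cKO cultures. Hnrnpr on the same scale was at 9.43, 9.13 and 8.98 CPM in WT and at 11.2, 10.7 and 11.2 CPM in cKO. Hnrnpr was therefore above Syncrip in every culture, by 1.38 to 1.69 times per kilobase of all exons and by 2.74 to 3.34 times per kilobase of the transcripts with the longest coding sequence. The size of that gap depends on which transcripts the cells use.

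The log2 ratio of raw Hnrnpr to Syncrip counts was 1.43, 1.34 and 1.32 in the WT cultures and 1.47, 1.42 and 1.61 in the cKO cultures. The groups overlapped, and the mean difference of 0.13 did not pass the exact permutation test (two-sided p = 0.2, where 0.1 is the smallest that 3 against 3 cultures allow). Syncrip and Hnrnpr together were at 287, 283 and 279 CPM in WT and at 340, 326 and 330 CPM in cKO. The groups did not overlap in this sum, whose log2 difference was 0.23 (exact permutation p = 0.1, again the smallest possible).

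The relatives and partners of the pair are given from lists by function. The hnRNP R/Q subfamily also holds A1cf, an editing cofactor of the liver and gut, Rbm46 and Dnd1 of germ cells, and Rbm47. A1cf and Rbm47 had at most 1 and 6 counts in any culture and were not tested. Rbm46 was at 3.45 ± 0.857 CPM in WT and 3.31 ± 0.201 in cKO, and Dnd1 at 1.53 ± 0.407 and 1.52 ± 0.310 (SD, n = 3 each). Hnrnpr was the sole member of the 4 tested to be called, where 39.5% of all tested genes were called. The median log2 difference was 0.07 against 0.00 over all tested genes.

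Over all tested genes 19.7% rose and 19.8% fell, the background for the counts in the lists that follow. Of 10 genes from mRNA stability complexes that hold SYNCRIP, 3 rose and none fell, with a median log2 difference of 0.14. Those that rose were the helicase gene Dhx9 (282 ± 24.2 to 353 ± 16.5 CPM, log2 difference 0.32 ± 0.084 SE, edgeR adjusted p = 0.00783), the poly(A)-binding protein gene Pabpc1 (627 ± 68.6 to 794 ± 26.5 CPM, 0.34 ± 0.091 SE, adjusted p = 0.00918) and Hnrnpd, which encodes the AU-rich element binding protein AUF1 (158 ± 5.86 to 198 ± 1.88 CPM, 0.32 ± 0.071 SE, adjusted p = 0.00296). Igf2bp1, Hnrnpu, Ybx1, Paip1, Elavl1 and Dcp1a were among the 7 that did not pass, with log2 differences from -0.08 for Ybx1 to 1.15 for Igf2bp1, the latter at 0.469 ± 0.417 and 1.08 ± 0.495 CPM. Dhx9 lost its call without cKO culture 3 (0.29, adjusted p = 0.0549). Igf2bp1 gained one without WT culture 3 (2.20, adjusted p = 0.0132) and Elavl1 without WT culture 1 (0.24, adjusted p = 0.00934). Among 4 other partners, Smn1, the gene of the survival motor neuron protein that binds hnRNP R, rose by 0.44 ± 0.106 SE on the log2 scale (adjusted p = 0.00465). Mepce, which caps the 7SK RNA, fell by 0.86 ± 0.138 SE (adjusted p = 2.57e-04). Larp7, which binds the same RNA, had a log2 difference of 0.29 (adjusted p = 0.0529; 0.38 and 0.0287 without cKO culture 1) and the editing enzyme gene Apobec1 one of 0.13 (adjusted p = 0.557). Of 26 other hnRNP genes 12 rose and 4 fell, with a median log2 difference of 0.15, and 2 of the 26, Hnrnpu and Hnrnpd, are also in the list of stability complexes. The genes named next were chosen after their values were seen. Ptbp2, a splicing regulator of neurons, rose by 0.55 ± 0.090 SE on the log2 scale (edgeR adjusted p = 3.12e-04), and Hnrnpdl, a relative of Hnrnpd, by 0.54 ± 0.073 SE (adjusted p = 6.90e-05). Those that fell were Hnrnpa0, Hnrnpul2, Raly and the poly(C)-binding protein gene Pcbp1, the last by 0.45 ± 0.081 SE (adjusted p = 7.45e-04). Over the 12 that rose, the log2 differences ran from 0.22 for Hnrnpl to 0.55 for Ptbp2, and Hnrnpr, at 0.26, lay within that range.

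The count table lists 18 genes within 100 kb of the pair, 8 of them at 0 counts in all cultures (Gm10163, Gm28229, Snord50a, Snord50b, Gm22985 and Gm26461 near Syncrip, Gm27022 and Htr1d near Hnrnpr). Of the 9 tested, 1 rose and 2 fell, beside 19.7% and 19.8% over all tested genes. Snhg5, a snoRNA host gene upstream of Syncrip at chr9:88521050-88522929, was at 17.5, 15.2 and 15.4 CPM in WT and at 26.3, 24.6 and 30.1 CPM in cKO. Those groups did not overlap (log2 difference 0.75 ± 0.112 SE, edgeR adjusted p = 1.57e-04). Zfp949, a zinc finger gene farther upstream, fell by 0.40 ± 0.114 SE (adjusted p = 0.0127), a call lost without cKO culture 2 (adjusted p = 0.0510). Zfp46, another zinc finger gene, which lies upstream of Hnrnpr, fell from 109 ± 2.75 to 65.4 ± 2.09 CPM (log2 difference -0.74 ± 0.072 SE, adjusted p = 3.77e-06). Snx14, next to the end of Syncrip, had a log2 difference of 0.25 (adjusted p = 0.0563) and was called with total-count scaling (adjusted p = 0.0380), with sex as a covariate (0.0261), without the low-count filter (0.0411) and without WT culture 1 (3.37e-04). Asap3, at -0.29 (adjusted p = 0.120), was called with sex as a covariate (0.0221), without the low-count filter (0.0467) and without WT culture 1 (0.00958). Nt5e, Gm20537, Trim43a and Tcea3 did not pass either, and Gm13013 had at most 5 counts.

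For the embryos, 8214 of 8289 WT barcodes and 9560 of 9659 cKO barcodes were kept, with medians of 11705 and 11012.5 UMIs. The libraries shared 22 barcode sequences. Cells were clustered without Syncrip and Hnrnpr into 28 clusters, and 23 of these took the name of a class from marker genes, with the suffix -like. The 5 unnamed clusters held 5282 of 17774 cells, and Syt4, Crabp1 and Nefm, genes of neurons, were among the leading genes of some. One of these clusters had 120 WT and 449 cKO cells, and another a median of 1162 UMIs. The AP-like, IP-like, migrating neuron-like, immature neuron-like and GE-like classes had 719 to 1643 cells per embryo. What a cluster needed for a name was decided with the clusters in view.

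Both genes were detected in all 11 named classes, and at the highest levels in cells of the neural lineage. Levels in cells are in CPM of UMIs, summed over the cells of a class and scaled by all UMIs of these cells. In AP-like cells Syncrip was at 315 in the WT embryo and 324 in the cKO embryo, and Hnrnpr at 365 and 364. In IP-like cells Syncrip was at 285 and 291, and Hnrnpr at 314 and 311. Migrating neuron-like cells had 274 and 328 CPM of Syncrip and 277 and 264 of Hnrnpr. Both genes were abundant in these cells: among 10389 genes with at least 200 UMIs in AP-like cells, Syncrip was above 95.7% and Hnrnpr above 96.3%.

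Immature neuron-like cells had 267 (WT) and 300 (cKO) CPM of Syncrip, and 267 and 250 of Hnrnpr. The GE-like class was a mixture, with clusters led by interneuron genes such as Sst and Lhx6 and a smaller one led by Ebf1 and Isl1, genes known from striatal projection neurons. In GE-like cells Syncrip was at 307 and 266 and Hnrnpr at 304 and 284. The Cajal-Retzius-like cells, early Reln-expressing neurons, had 233 and 277 of Syncrip and 205 and 230 of Hnrnpr. Both genes were lower outside the neural lineage.

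Endothelial-like cells had 195 (WT) and 173 (cKO) CPM of Syncrip and 153 and 161 of Hnrnpr. Pericyte-like, fibroblast-like and microglia-like cells lay between 149 and 208 CPM for Syncrip and between 120 and 174 for Hnrnpr. These 4 classes had 18 to 91 cells per embryo, which limits the precision of their values. In red blood cell-like cells Syncrip was at 40.1 and 74.5 CPM from 9 and 17 UMIs, and Hnrnpr at 75.7 and 57.0 from 17 and 13 UMIs. With so few UMIs these values are imprecise. Whether the UMIs came from the cells themselves or from RNA outside cells was not tested.

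**Figure D3:**
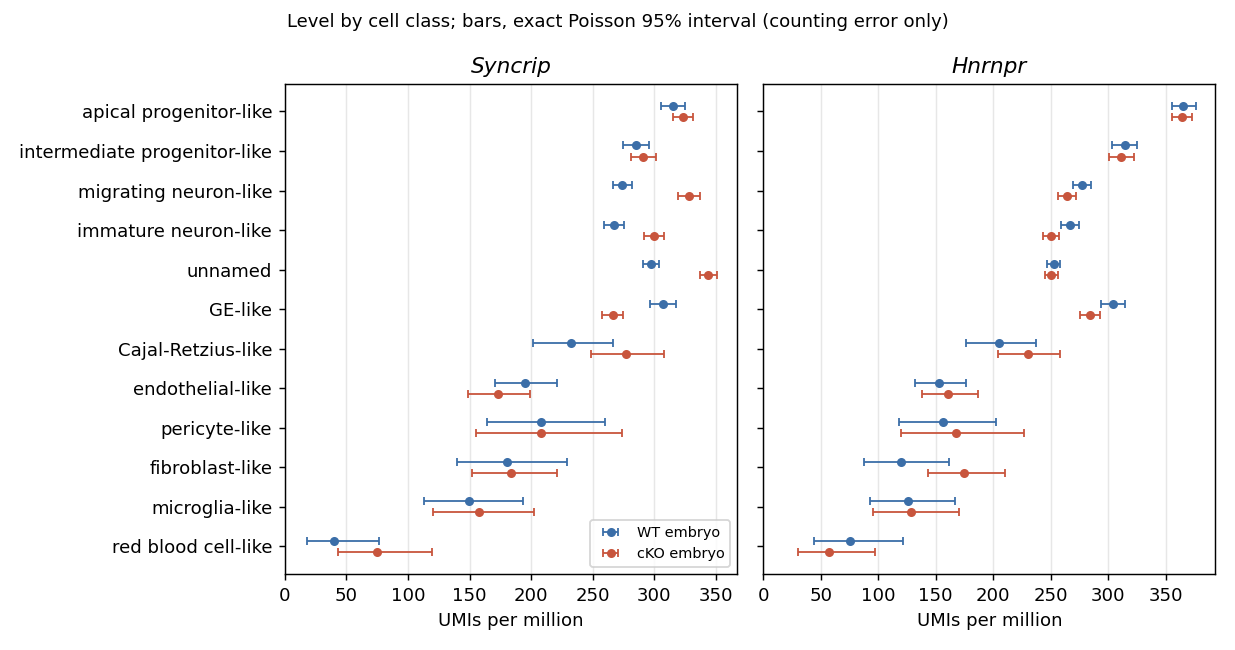
Syncrip (left) and Hnrnpr (right) in CPM, summed over the cells of each class, in the WT (blue) and cKO (red) embryo, with exact Poisson 95% intervals. Hnrnpr declines from AP-like (365 and 364) through IP-like (314 and 311) to immature neuron-like cells (267 and 250). Syncrip spans a narrower range in these classes, 267 to 324, and both genes are low in red blood cell-like cells.

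Hnrnpr was lower at each step of the lineage, from AP-like through IP-like and migrating to immature neuron-like cells, in both embryos. Ordered by level, AP-like cells came first for Hnrnpr, then IP-like, GE-like, migrating neuron-like and immature neuron-like cells. The step from AP-like to IP-like cells was the 1 of 10 between neighbours in that order that exceeded the counting intervals of both embryos. For Syncrip none of the 10 steps did, and its order in the embryos differed, with migrating neuron-like cells near the top in cKO but not in WT. On the log2 scale Hnrnpr in AP-like cells was above immature neuron-like cells by 0.45 in WT (95% interval 0.39 to 0.51) and by 0.54 in cKO (0.49 to 0.60). The same difference for Syncrip was 0.24 (0.18 to 0.30) in WT and 0.11 (0.06 to 0.16) in cKO. Between AP-like and migrating neuron-like cells it was 0.20 (0.14 to 0.26) in WT and -0.02 (-0.07 to 0.03) in cKO, so there the difference seen in the WT embryo was not seen in the cKO embryo.

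Levels also differed with the phase of the cell cycle called from S and G2/M genes. Among AP-like cells, Hnrnpr was at 314 (WT) and 297 (cKO) CPM in cells called G1, at 350 and 349 in those called S and at 388 in both embryos in those called G2/M. The G1 and G2/M intervals did not overlap in either embryo (WT 290 to 340 against 374 to 403). Among IP-like cells the same 3 phases had 280, 344 and 390 in WT and 278, 338 and 380 in cKO. Syncrip moved less across phases in AP-like cells, with 300, 285 and 337 in WT and 311, 321 and 328 in cKO. In IP-like cells it was at 260, 304 and 343 in WT and at 264, 344 and 325 in cKO, with G1 the lowest in both. The phase calls differed between the embryos, with 303 of 962 AP-like cells called S in WT and 548 of 1320 in cKO.

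Most progenitors and neurons carried both transcripts. With each cell thinned to 5000 UMIs, leaving out 181 WT and 180 cKO AP-like cells that were shallower, Syncrip was seen in 75.2% of AP-like cells in WT and 75.4% in cKO. Hnrnpr was seen in 80.9% and 82.9%, both genes in 60.2% and 62.3%, and neither in 4.10% and 3.95%. In immature neuron-like cells, without 119 and 169 shallower cells, Syncrip was seen in 72.0% and 75.5% and Hnrnpr in 73.7% and 71.6%. The red blood cell-like cells deep enough to be thinned were few, and 3 of 15 in WT and 3 of 17 in cKO had Syncrip while 1 and 3 had Hnrnpr. Before thinning, the shares in AP-like cells were 85.4% and 88.3% for Syncrip and 87.8% and 90.6% for Hnrnpr (median 12459 and 12655 UMIs), while in red blood cell-like cells 7 of 54 in WT and 11 of 56 in cKO had Syncrip and 11 and 8 had Hnrnpr (median 3569.5 and 2621.5 UMIs).

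The balance of the pair was read from the share of Syncrip among the summed UMIs of both genes. Counts of 3′ tags do not grow with transcript length, but the ends of different genes may be captured with different efficiency, so the share was compared across classes and embryos and not read as a ratio of molecules. In AP-like cells it was 46.3% in WT (exact binomial 95% interval 45.3 to 47.4) and 47.1% in cKO (46.2 to 47.9). IP-like cells had 47.6% (46.3 to 48.8) and 48.3% (47.1 to 49.5). The intervals of the embryos overlapped in both classes. At resolution 0.4 those of the wider IP-like class did not, with 47.5% in WT (46.5 to 48.4) and 50.7% in cKO (49.7 to 51.6).

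The neurons leaned further to Syncrip, and more so in cKO. Migrating neuron-like cells had a share of 49.7% in WT (48.8 to 50.7) and 55.4% in cKO (54.4 to 56.4). Immature neuron-like cells had 50.1% (49.0 to 51.1) and 54.5% (53.6 to 55.5). The unnamed clusters had 54.1% (53.3 to 54.9) and 57.8% (57.1 to 58.6). GE-like cells went the other way, with 50.3% in WT (49.1 to 51.5) and 48.4% in cKO (47.2 to 49.5).

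**Figure D4:**
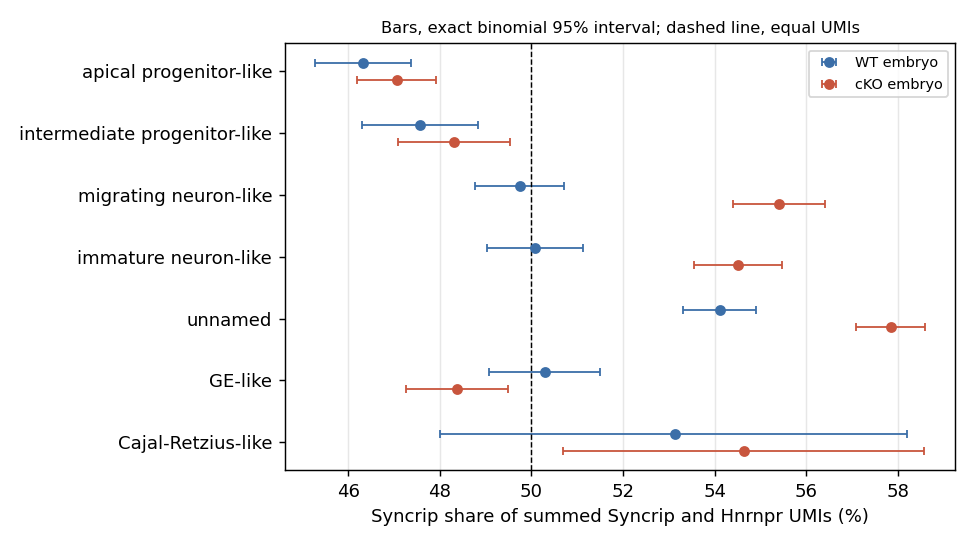
Share of Syncrip among the summed Syncrip and Hnrnpr UMIs in percent by class, for the WT (blue) and cKO (red) embryo, with exact binomial 95% intervals and a dashed line at equal UMIs. AP-like and IP-like cells lie below the line in both embryos, and migrating and immature neuron-like cells lie on it in WT and at 55.4% and 54.5% in cKO.

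In the progenitor classes the embryos were close for both genes, apart from Syncrip in AP-like cells called S and in a wider IP-like class. In AP-like cells the log2 ratio of cKO over WT was 0.04 for Syncrip (exact 95% interval -0.02 to 0.10) and -0.00 for Hnrnpr (-0.06 to 0.05). In IP-like cells it was 0.03 (-0.04 to 0.10) and -0.01 (-0.08 to 0.06). Clustered at resolution 0.4, the IP-like name went to 1478 WT and 1483 cKO cells in place of 719 and 776. In that wider class Syncrip was higher in cKO by 0.15 (0.10 to 0.21), while Hnrnpr had a log2 ratio of -0.03 (-0.09 to 0.02). The 4 IP-like clusters at resolution 0.8 had Syncrip log2 ratios of 0.003 to 0.085. Among AP-like cells called S, Syncrip was at 285 CPM in WT (268 to 302) and 321 in cKO (308 to 334), and those intervals did not overlap. In those called G2/M it was at 337 (323 to 351) in WT and 328 (317 to 340) in cKO. The intervals for Hnrnpr in both classes cover counting error only. That of the cultures, 0.11 to 0.42, covers the spread between cultures, so the ends of these intervals cannot be set against each other. The direct comparison of cultures and embryos was not tested, and cell states, platforms and number of samples differ between them.

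Syncrip differed between the embryos in neurons and GE-like cells. The log2 ratio was 0.26 (0.20 to 0.31) in migrating neuron-like cells, a class in which 9.08% of the compared genes were above 0.2 and 9.26% below -0.2. It was 0.17 (0.11 to 0.22) in immature neuron-like cells, larger in size than that of 73.4% of the genes compared there. In the unnamed clusters it was 0.21 (0.17 to 0.25). All 4 clusters of migrating and immature neuron-like cells and all 5 unnamed clusters were higher in cKO, by 0.13 to 0.32. Clusters are parts of the same WT and cKO embryo, so they are not separate observations of the genotypes. In GE-like cells the log2 ratio was -0.21 (-0.27 to -0.14), a class in which 7.74% of the compared genes were below -0.2, and the log2 ratio of all 5 GE-like clusters was below 0, from -0.28 to -0.10. The GE is outside the Emx1 lineage, so the recombinase was not aimed at the cells of that class.

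Hnrnpr differed less. Its log2 ratio was -0.07 (-0.13 to -0.01) in migrating neuron-like cells, -0.09 (-0.15 to -0.03) in immature neuron-like cells and -0.10 (-0.16 to -0.03) in GE-like cells. In immature neuron-like cells it was -0.020 and -0.027 when the cells were clustered at resolution 0.4 and 1.2, so that value depended on which neurons bore the name. Among fibroblast-like cells Hnrnpr was higher in the cKO embryo, by 0.54 (0.02 to 1.08), from 44 UMIs in WT and 109 in cKO. In none of the AP-like, IP-like, migrating neuron-like, immature neuron-like and GE-like classes did Hnrnpr lie higher in the cKO embryo beyond counting error. For scale, the median size of the log2 ratio over all genes compared was 0.09 to 0.10 in these classes. The shares of genes above 0.2 and below -0.2 were 12.8% and 10.2% in AP-like, 11.7% and 9.55% in IP-like and 10.8% and 8.95% in immature neuron-like cells. The summed level of the pair, cKO over WT, had a log2 ratio of 0.02 in AP-like and 0.01 in IP-like cells, 0.10 (0.06 to 0.14) in migrating neuron-like cells, 0.04 (0.00 to 0.08) in immature neuron-like cells and -0.15 (-0.20 to -0.10) in GE-like cells. With 1 embryo per genotype, a difference between the genotypes cannot be told apart from one between any 2 littermates.

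**Figure D5:**
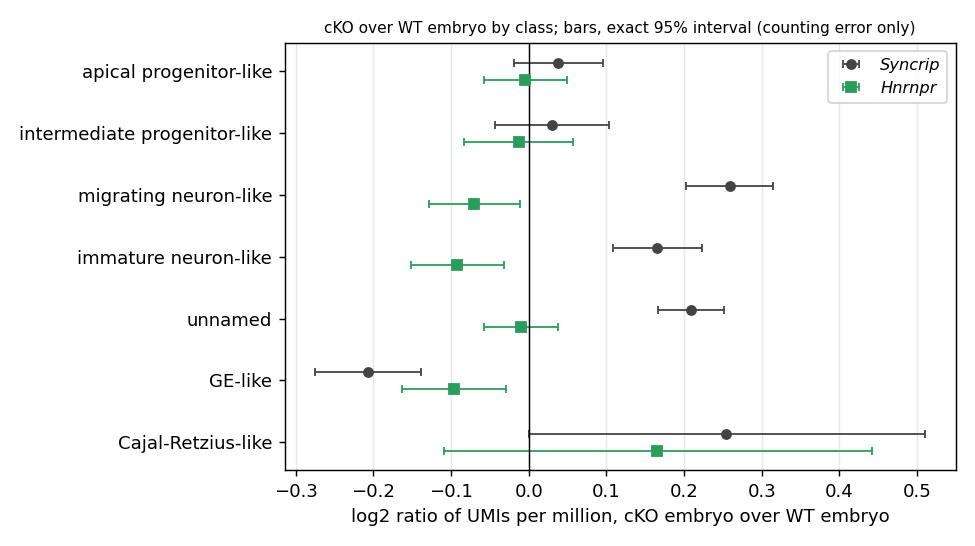
Log2 ratio of CPM, cKO over WT embryo, for Syncrip (grey circles) and Hnrnpr (green squares) by class, with exact 95% intervals for counting error. Syncrip lies near 0 in AP-like and IP-like cells, at 0.26 and 0.17 in migrating and immature neuron-like cells and at -0.21 in GE-like cells, while Hnrnpr stays between -0.10 and 0.00 in these classes.

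The partners were also read in the embryos. Over all 10389 genes compared in AP-like cells, the counting interval lay above 0 for 14.8% and below 0 for 15.0%, and abundant genes such as those of these lists have narrower intervals than most. Of the 10 genes of the stability complexes, all with at least 200 UMIs in AP-like cells, 5 had an interval below 0 and 1 above 0, with a median log2 ratio of -0.05 against -0.01 over all genes compared there. Pabpc1, which rose in the cultures, had a log2 ratio of -0.18 (-0.23 to -0.12) in AP-like cells and -0.27 (-0.35 to -0.19) in migrating neuron-like cells. Igf2bp1, whose protein binds the coding region determinant of Myc mRNA, had 0.14 (0.03 to 0.24) and 0.19 (0.08 to 0.30) in the same classes. Of the 26 other hnRNP genes, 14 were lower and 1 higher beyond the counting interval in AP-like cells, with a median log2 ratio of -0.06, and none was past 0.2 in either direction.

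Among the other partners, Smn1 had a log2 ratio of -0.10 (-0.22 to 0.01) in AP-like cells, Larp7 -0.08 (-0.18 to 0.01), Mepce 0.03 (-0.21 to 0.26) and Apobec1 0.44 (0.23 to 0.66). A1cf, Rbm46, Rbm47 and Dnd1 had at most 15 UMIs per embryo in AP-like cells. Of the neighbours, Snhg5 was higher in cKO in AP-like cells by 0.21 (0.07 to 0.34), in IP-like cells by 0.21 (0.04 to 0.37), in migrating neuron-like cells by 0.13 (0.03 to 0.23) and in immature neuron-like cells by 0.18 (0.05 to 0.30). Its log2 ratio in GE-like cells was 0.04 (-0.06 to 0.15). Zfp46, which fell in the cultures, had 0.20 (-0.10 to 0.51) in AP-like cells, and Zfp949 -0.03 (-0.34 to 0.27).

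The genes whose pattern was most like that of each member were sought over the 11 named classes of the WT embryo, by Pearson's r of log2(CPM + 1) of the summed UMIs among 12757 genes with at least 200 UMIs. For Syncrip they were Pop4 (r = 0.996 in WT, 0.933 in cKO), Ptma (0.992, 0.968), Ints2 (0.991, 0.819), Zmym4 (0.990, 0.909) and Luc7l3 (0.990, 0.935). For Hnrnpr they were Zc3h13 (0.973, 0.956), Wiz (0.970, 0.751), Phf6 (0.964, 0.953), Cnot7 (0.959, 0.930) and Elp2 (0.958, 0.875). The pattern of Syncrip was shared more widely, with r above 0.9 for 2087 genes in WT against 177 for Hnrnpr. The members themselves had r = 0.880 in WT and 0.972 in cKO over the same 11 classes. Over the 5 AP-like, IP-like, neuron-like and GE-like classes alone r was 0.870 in WT and 0.182 in cKO. The points share their libraries, and the red blood cell-like class, low in both genes, weighs heavily in these values.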

How the data were processed

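The deposited bulk table held raw read counts per gene, which the authors made from paired reads aligned to mm10 with HISAT2. The counting program and its strand setting were not stated in any source at hand. The deposited single-cell matrices held raw UMI counts, which the authors made with Cell Ranger from 10x 3′ libraries.

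Bulk counts were filtered with filterByExpr, scaled by TMM and tested with edgeR 4.0.16 (robust quasi-likelihood test, Benjamini-Hochberg adjustment, threshold 0.05), after a test on simulated counts. Ratios per culture were compared over all 20 splits of the cultures. Barcodes were kept that had 200 genes or more and no more than 10% of UMIs from mitochondrial genes. They were clustered with Seurat 5.3.0 (2000 variable genes without the members, sex-linked and mitochondrial genes, 30 components, resolution 0.8). A cluster took the name of the marker list with the highest mean standardized level, if that was at least 0.5, at least 3 markers were raised 1.5-fold and no other list had more markers among the 10 leading genes. A cluster with a median UMI count more than 3-fold under its library's also needed a marker of its own there. Scrublet calls (scanpy 1.11.5; 293 WT and 456 cKO cells) were removed as an alternative only. Intervals are exact Poisson, binomial or conditional binomial at 95%. Gene models and sequences came from the mm10 genome and annotation, and primers from the study's supplement.

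Genes named were the members, all genes of lists of up to 12, neighbours within 100 kb and the 5 most alike in pattern. One gene of these lists is not reported here. The members and lists were chosen with earlier results of these data known. Alternatives were other scalings, filters, tests, resolutions, cell filters and depths, sex as a covariate, a replicate block and leaving out each culture.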

Additional observations from a re-analysis of the deposited data

Results flagged for a closer look

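Syncrip moved in opposite directions in classes of the same embryos. The log2 ratio of cKO over WT was 0.26 in migrating neuron-like and 0.17 in immature neuron-like cells, and -0.21 in GE-like cells, which lie outside the lineage targeted by Emx1-Cre. With 1 embryo per genotype this difference between classes was not tested. No group of cultures was large enough to look for a single culture that stood apart.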

How the results depend on the processing

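Of 173 alternative values for 36 results, 145 were counted as unchanged. For a tested gene this meant the same direction and side of the threshold, and for the ratio of the pair the same direction. For the number of genes called it meant a count within a fixed fold of the main one. Single-cell values had to stay within the counting interval. The results include 4 gene lists, for which no alternative was run. Of the log2 ratios in classes, 4 changed sign, all of Hnrnpr and all within counting error of 0: in AP-like cells to 0.0051 with doublets removed, 0.00024 at resolution 1.2 and 0.00027 without the low-UMI cluster, and in IP-like cells to 0.011 with doublets removed. Leaving out 1 culture, the log2 difference of Hnrnpr ranged from 0.24 to 0.29 (edgeR adjusted p = 0.00456 to 0.0570), that of Syncrip from 0.09 to 0.18 and the difference in their log2 ratio from 0.08 to 0.17. Hnrnpr kept its call without any 1 WT culture or cKO culture 2 and lost it without cKO culture 1 or cKO culture 3, where fewer samples were fitted. Over the other alternatives the adjusted p of Hnrnpr was 0.00306 to 0.0158. That of Syncrip was 0.147 to 0.461 over all of its alternatives. The genes called numbered 4108 without cKO culture 3 and 6345 without WT culture 1, against 5701 in all. With a replicate block the count was 6405, but the numbers did not pair the cultures (correlations of same-numbered deviations 0.264, -0.047 and 0.116), and the block changed no call of either member but gave calls to Elavl1 (edgeR adjusted p = 0.0373), Larp7 (0.0440), Snx14 (0.0113) and Asap3 (0.0418). The paired log2 ratio difference of Hnrnpr to Syncrip was 0.13 (exact p = 0.25, the smallest possible).

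At resolution 0.4 the log2 ratio of Syncrip in IP-like cells was 0.15 (0.03 at 0.8). That of Hnrnpr in immature neuron-like cells was -0.020 at 0.4 and -0.027 at 1.2. Syncrip's share of the pair at resolution 0.4 was 50.7% in IP-like cells of cKO, 51.3% and 57.4% in migrating and 53.1% and 56.2% in immature neuron-like cells of WT and cKO, and at 1.2 it was 52.8% and 56.2% in the latter. The number and kind of cells bearing a name changed with the resolution. The share of cells with a UMI followed the depth by construction. In AP-like cells of WT and cKO, Syncrip was seen in 58.7% and 59.2% at 3000 UMIs and 85.4% and 88.3% without thinning, and Hnrnpr in 63.6% and 63.9%, and 87.8% and 90.6%. In immature neuron-like cells Syncrip was seen in 53.2% and 60.1%, and 89.8% and 89.9%, and Hnrnpr in 57.7% and 51.4%, and 90.2% and 88.6%. Leaving out the AP-like cluster of low UMI counts and limiting the shares to cells with at most 5% mitochondrial UMIs were chosen after seeing the data. The low counts of the vascular, microglia-like and blood classes limit their ratios.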
